A study of Mus musculus with 2 samples.

Results

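The imprinted domain around Igf2r and Airn on mouse chromosome 17 was described in 2 RNA-Seq libraries of fetal brain. Its members were all entries of the deposited catalog of known imprinted genes on chromosome 17 with a start in a window whose annotated genes run from Agpat4 (start 12311570, mm9) to Tcp10b (start 13253970), which gave 4 of 128 entries: Slc22a3, Slc22a2, Igf2r and Air, the catalog's name for Airn. The libraries came from whole brain at E17.5 of reciprocal F1 hybrids. The BxC embryo had a C57BL/6J mother and a CastEi/J father (CAST/EiJ in the paper), and the CxB embryo had a CastEi/J mother and a C57BL/6J father. Each library was made from polyA+ RNA of 1 brain without pooling. The CxB brain was male, and which of the study's BxC brains lies behind the BxC library is not given in the sources used here. Reads on chromosome Y numbered 1852 in BxC and 18212 in CxB, or 14.4 and 166 per 1000000 aligned reads, so the libraries differ in this as well as in the cross, and the parts of both in any difference cannot be told apart. With 1 library per cross there is no spread between replicates, so no test was made, and every interval below is a 95% interval for counting error only. Reads without molecular identifiers can be copies of the same molecule, which these intervals do not cover.

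Imprinted genes are transcribed mainly from the copy inherited from one parent. In this domain the Airn promoter lies inside an intron of Igf2r and is methylated in the egg. Airn, a long and mostly unspliced RNA, is made from the unmethylated paternal copy, runs antisense through the Igf2r promoter, and silences Igf2r on that chromosome. In the placenta it also silences Slc22a2 and Slc22a3. In neurons Igf2r is known to lose its imprint and to be transcribed from both copies. Igf2r encodes the cation-independent mannose 6-phosphate receptor, which carries newly made lysosomal enzymes to endosomes and takes up insulin-like growth factor II (IGF-II) for degradation. Slc22a2 and Slc22a3 encode organic cation transporters. The catalog lists Slc22a3, Slc22a2 and Igf2r as expressed from the maternal copy and Air as expressed from the paternal copy. The files hold no bases at polymorphic sites, so the parental origin of a read was not measured here.

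All coordinates are of mm9. Slc22a3 (ENSMUSG00000023828.2) lies on the minus strand at chr17:12612842-12700570 with 11 exons. Slc22a2 (ENSMUSG00000040966.8) lies on the plus strand at chr17:12777055-12821353. Igf2r (ENSMUSG00000023830.7) lies on the minus strand at chr17:12875279-12962530 with 48 exons and 47 introns. Air (ENSMUSG00000078247.3) is listed as a single block on the plus strand at chr17:12934509-13019934, which is 85.4 kb long. Its annotated counterpart Airn starts earlier, at 12934177 in intron 2 of Igf2r, and its longest transcript ends later, at 13052988. The first 28.0 kb of the catalog block, or 32.8% of it, lie inside the Igf2r span and cover exons 1 and 2, intron 1 and most of intron 2 of Igf2r. The other 57.4 kb lie beyond the Igf2r start.

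The sequences around the 2 opposed starts are shown because they set the frame for every count in the overlap. Capitals mark CpG dinucleotides (the letters CG, which read the same on both strands), the sites where DNA methylation is placed. The 250 bases before the annotated Igf2r start (chr17:12962531-12962780, minus strand) hold 32 CpG, those before the annotated Airn start (chr17:12933927-12934176, plus strand) hold 2, and the 300 bases richest in CpG within 3 kb of the Airn start (chr17:12934598-12934897, plus strand) hold 31.
Igf2r upstream: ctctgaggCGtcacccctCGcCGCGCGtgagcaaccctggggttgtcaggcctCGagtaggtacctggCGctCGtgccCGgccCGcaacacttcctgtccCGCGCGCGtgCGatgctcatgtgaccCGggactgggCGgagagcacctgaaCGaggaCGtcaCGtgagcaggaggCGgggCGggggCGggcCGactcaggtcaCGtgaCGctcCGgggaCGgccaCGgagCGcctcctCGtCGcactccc
Airn upstream: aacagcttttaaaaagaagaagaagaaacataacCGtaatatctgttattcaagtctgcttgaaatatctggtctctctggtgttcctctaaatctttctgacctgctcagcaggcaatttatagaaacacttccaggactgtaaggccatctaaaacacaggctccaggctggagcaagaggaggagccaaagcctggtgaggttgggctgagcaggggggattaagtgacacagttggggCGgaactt
Airn CpG-rich window: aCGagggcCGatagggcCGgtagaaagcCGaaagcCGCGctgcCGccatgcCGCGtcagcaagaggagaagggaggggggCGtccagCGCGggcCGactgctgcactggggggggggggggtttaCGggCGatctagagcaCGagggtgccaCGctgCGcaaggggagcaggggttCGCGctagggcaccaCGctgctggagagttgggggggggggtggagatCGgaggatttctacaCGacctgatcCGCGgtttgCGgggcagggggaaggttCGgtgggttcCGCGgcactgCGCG
The CpG-rich window starts 421 bases past the annotated Airn start. Counted in steps of 300 bases, CpG numbered 3 in the step before that start, 18, 23, 22 and 22 in the next 4 steps, and 9 in the step after them. RefSeq promoter windows of 300 bases (GRCm38.p6) were found for 4 of 4 members. They hold 34 CpG for Igf2r, 8 for Slc22a2, 5 for Slc22a3 and 3 for Airn, beside a median of 7 over 32851 windows, of which 94.57% hold at least 1. Of those windows, 92.3% had fewer CpG than that of Igf2r and 23.3% had fewer than that of Airn.

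The BxC library held 128944754 aligned reads and the CxB library 109719746. Neuronal markers, which define brain, were abundant: the 4 found of 5 summed to 1372 in BxC and 1251 in CxB in RPKM, the reads per kilobase of exon and per 1000000 aligned reads of the library. The sums were 237 and 244 RPKM for radial glia and astrocytes, 51.8 and 58.4 for the oligodendrocyte lineage, 59.6 and 55.7 for vessels and meninges, and 255 and 282 for choroid plexus. Some sums rest mainly on a single gene. Tubb3 gave 973.8 and 840.3 of the neuronal sum, and Ttr gave 253.4 and 280.5 of that for choroid plexus. The 2 found of 4 blood markers summed to 91.3 and 74.1 RPKM. The liver list, which could mark carry-over from another organ, summed to 1.18 and 1.80 RPKM. Of its genes, Apoa2 had 81 and 74 reads, while Alb had 0 reads in BxC and 45 in CxB and Ahsg had 1 and 56. Whether such RNA contributes to the values of the domain was not tested. Over the 15427 annotated genes with at least 100 exonic reads in each library, 1.10% differed by 1.5-fold or more between the libraries, 0.473% being higher and 0.622% lower in CxB, and this share is the background for each count of genes below. In a whole brain, fewer cells of a type and less RNA per cell cannot be told apart.

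Igf2r was the most highly expressed of the 4 entries. It had 6671 reads in BxC and 5783 in CxB over its catalog exons. These gave 5.83 RPKM (5.69 to 5.97) and 5.94 RPKM (5.78 to 6.09), so both libraries held nearly equal levels. The log2 ratio of CxB over BxC was 0.03 (-0.02 to 0.08). By RPKM Igf2r stood at place 51 of the 128 catalog entries in BxC and at place 52 in CxB.

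Air had almost as many reads as Igf2r, spread over a far longer block. It had 6147 reads in BxC and 4794 in CxB, or 0.558 RPKM (0.544 to 0.572) and 0.511 RPKM (0.497 to 0.526). Of these, 551 and 495 overlapped the Igf2r exons that lie inside the block, and are counted for Igf2r too. Of the reads of the block, 25 and 29 were spliced, of which 15 and 18 crossed Igf2r intron 1 and 9 and 11 crossed Igf2r intron 2. Without the 551 and 495 reads over Igf2r exons, Air had 5596 and 4299 reads, at 0.512 and 0.462 RPKM. Its level was lower in CxB, with a log2 ratio of -0.15 (-0.21 to -0.09), which is short of 1.5-fold. The difference was not even along Air. The 5596 and 4299 reads include 466 and 264 over pseudogenes inside the block. They also include 556 and 270 reads in the 2 kb from 68 to 70 kb past the annotated Airn start. Outside annotated exons, the part of Air inside Igf2r had 1.06 times the BxC density in CxB (0.988 to 1.14).

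The transporter genes were low. Slc22a3, which carries organic cations and monoamines across membranes, had 441 reads in BxC and 396 in CxB. Its level was 0.978 RPKM (0.889 to 1.07) and 1.03 RPKM (0.933 to 1.14), with a log2 ratio of 0.08 (-0.12 to 0.28). Slc22a2, a related transporter best known from the kidney, had 55 and 52 reads, at 0.200 RPKM (0.150 to 0.260) and 0.222 RPKM (0.166 to 0.291). It was the only member under 100 reads in each library. Of the 3 members above that limit, 0 differed by 1.5-fold or more between the crosses, beside 1.10% of all genes.

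The neighbours placed the members in a window of both active and silent genes. Of 31 annotated genes that start in the window, 17 had at least 100 reads in each library and 3 had no read in either. On the side of Slc22a3, the lysophospholipid acyltransferase gene Agpat4 had 8.12 and 7.64 RPKM and the kinase gene Map3k4 had 6.29 and 6.19 RPKM. A second annotated Map3k4 gene on the opposite strand overlaps it and had 5.73 and 5.46 RPKM, and reads of this pair cannot be told apart. The lincRNA 4732491K20Rik had 1.47 and 1.42 RPKM. Plg, which encodes plasminogen and lies next to Slc22a3, was near-silent, with 4 reads in each library.

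**Figure D1:**
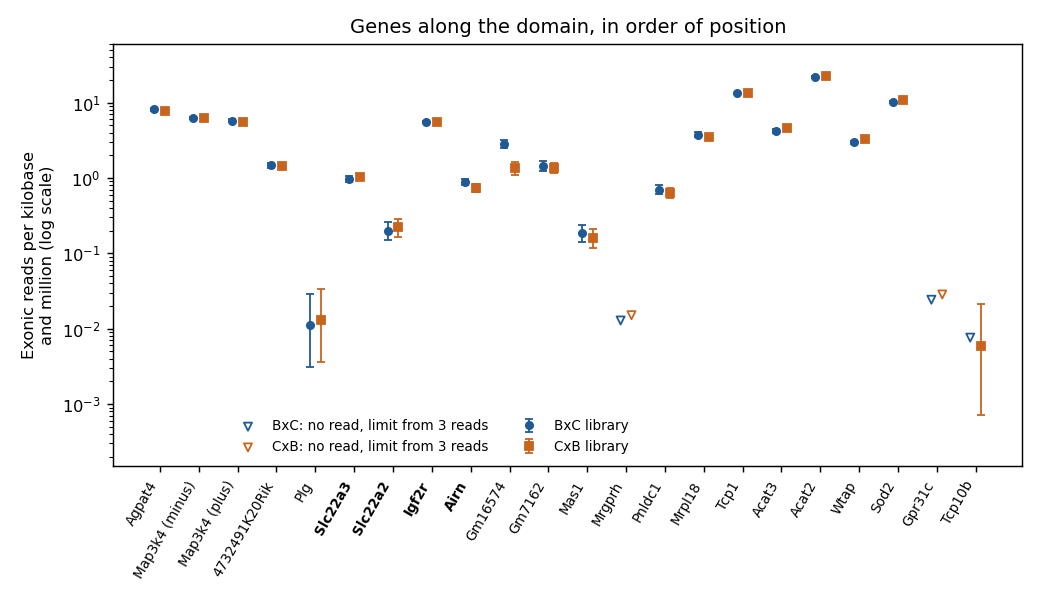
Exonic RPKM (log axis) of the members, 4 noncoding genes including Airn, and protein-coding genes of the window, in order of position, with 95% Poisson intervals; open triangles mark genes with no read, at the limit that 3 reads would give, and the 4 members are in bold. Igf2r stood near 5.5 RPKM in both libraries, above Slc22a3, Slc22a2 and the exons of Airn.

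Beyond Airn, Mas1, a receptor gene whose annotated span overlaps the last stretch of Airn, had 63 reads in BxC and 46 in CxB at 0.186 and 0.160 RPKM. Pnldc1 had 0.701 and 0.630 RPKM. Most of the next genes were again well expressed. Tcp1 overlaps Mrpl18 at one end and Acat3 at the other, and reads in those overlaps cannot be told apart. Mrpl18 of the mitochondrial ribosome had 3.73 and 3.51 RPKM, the chaperonin subunit gene Tcp1 had 13.28 and 13.62, and the acetyl-CoA acetyltransferase genes Acat3 and Acat2 had 4.18 and 4.63, and 22.03 and 22.27. The pseudogene Gm15946 had 3.22 and 3.94 RPKM, from 177 and 184 reads on only 18 and 15 distinct positions and with 3.96% and 0.543% on its annotated strand. Wtap, of the RNA methylation complex, had 2.97 and 3.27, and Sod2, the mitochondrial superoxide dismutase, had 10.3 and 10.9. As the plot of genes along the domain shows, Igf2r lay just below the minus-strand Map3k4 gene by level and beside the plus-strand one, whereas Slc22a2 lay near Mas1.

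Of the 17 neighbours and members with at least 100 reads in each library, 1 was past 1.5-fold, beside 1.10% of all genes and 3.61% of the genes with 100 to 600 exonic reads in each library. This was Gm16574, an annotated pseudogene of 745 bases inside the outer part of Air, 77.5 kb from the annotated Airn start. It had 274 reads in BxC and 110 in CxB, or 2.85 RPKM (2.53 to 3.21) and 1.35 RPKM (1.11 to 1.62), which is 0.472 times as much in CxB (0.375 to 0.591). Counted once per distinct position, it had 122 and 61 positions, or 0.587 times as many. The nearby pseudogene Gm7162, which also lies inside Air, had 192 and 154 reads, or 0.943 times as much in CxB (0.757 to 1.17). Neither pseudogene had a spliced read, and reads of either and of Airn cannot be told apart. Outside annotated exons, the bins at 76 to 78 kb and 78 to 80 kb had 2.18 and 1.46 RPKM in BxC and 1.75 and 1.95 in CxB. Those bins had 0.802 and 1.33 times the BxC level in CxB. The annotated 7SK copy inside Air had 4 and 7 reads.

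Reads outside annotated exons traced Airn along its length. In this measure, unspliced reads that lie wholly outside every annotated exon were counted per kilobase of positions where a read of 36 bases fits. The part of Air inside the Igf2r span had 1639 reads in BxC and 1479 in CxB, at 0.467 RPKM (0.444 to 0.490) and 0.495 RPKM (0.470 to 0.521). The part outside had 3114 and 2265 reads, at 0.457 RPKM (0.441 to 0.473) and 0.390 RPKM (0.375 to 0.407). Introns 3 to 47 of Igf2r, which Air does not reach, had 689 and 555 reads, at 0.112 RPKM (0.104 to 0.121) and 0.106 RPKM (0.0975 to 0.115). Both parts of Air were thus well above the remainder of the Igf2r introns in both libraries.

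The inside part was 4.16 times (3.80 to 4.56) as dense as Igf2r introns 3 to 47 in BxC and 4.66 times (4.23 to 5.15) in CxB. For the outside part these ratios were 4.07 (3.75 to 4.43) and 3.68 (3.35 to 4.04). Inside over outside came to 1.02 (0.962 to 1.09) in BxC and 1.27 (1.19 to 1.35) in CxB. In CxB the inside part was the denser under every alternative, whereas in BxC the ratio lay on either side of 1, from 0.934 to 1.39. Reads from Igf2r introns 1 and 2 that stem from the Igf2r transcript itself fall in the inside part too, and their share cannot be told apart.

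**Figure D2:**
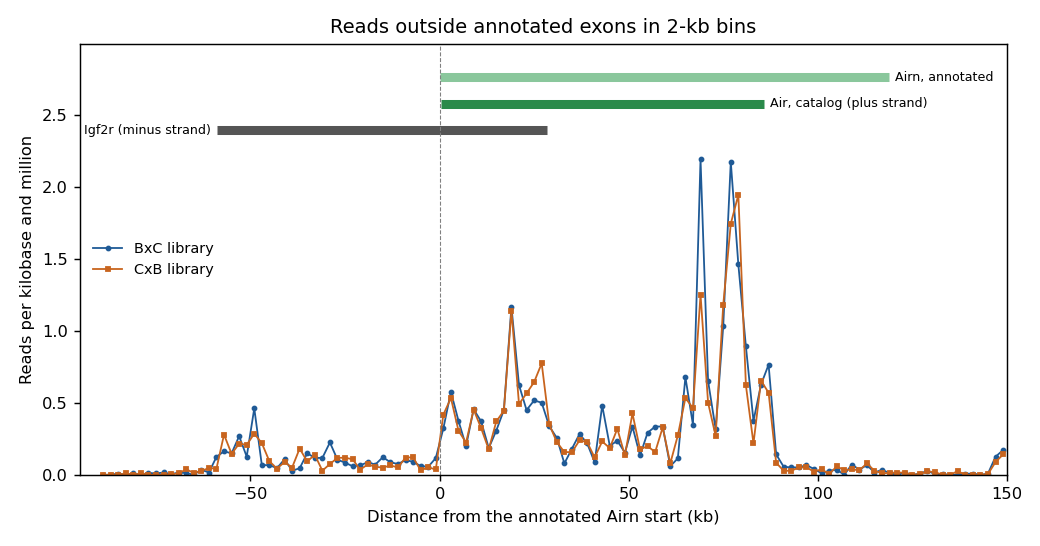
Reads outside annotated exons in 2-kb bins (RPKM) against distance from the annotated Airn start, with the spans of Igf2r, the catalog's Air and annotated Airn drawn above. Both libraries rose at the Airn start, ran at about 0.2 RPKM from 30 to 60 kb, peaked between 68 and 80 kb and fell back near 90 kb.

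The signal rose at the Airn start within intron 2 of Igf2r. The 0.869 kb of that intron that lie before the annotated Airn start held 12 reads in BxC and 2 in CxB, at 0.107 and 0.0210 RPKM. Past the catalog's Air start the same intron held 346 and 294 reads, at 0.385 RPKM in each library. Intron 1, which Air crosses in full, held 1293 and 1185 reads, at 0.495 and 0.533 RPKM. The step within the intron was 3.60-fold (2.03 to 7.03) in BxC and 18.3-fold (5.03 to 152) in CxB, the latter resting on 2 reads before the start.

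Along Airn the density was uneven in the same places in both libraries. In steps of 10 kb from the Airn start, it was 0.384, 0.506 and 0.490 RPKM over the first 3 steps in BxC and 0.385, 0.499 and 0.573 in CxB. It was lower over the next 3, at 0.202, 0.230 and 0.283 RPKM in BxC and 0.199, 0.196 and 0.258 in CxB. Over the following 3 it was 0.672, 1.08 and 0.586 RPKM in BxC and 0.513, 0.999 and 0.457 in CxB. The step from 70 to 80 kb was the highest in both libraries, and it and the trough lie in the part outside Igf2r. In bins of 2 kb, the part inside had its own peak at 18 to 20 kb, with 296 and 246 reads at 1.17 and 1.14 RPKM.

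Of the 45 bins of 2 kb in the first 90 kb of Airn, 15 had at least 100 reads in each library and 2 of them were past 1.5-fold, beside 2.65% of the genes with 100 to 600 intronic reads in each library. That share counts whole genes, whereas the bins are adjacent stretches of a single locus, so it is not a matched background. At 68 to 70 kb there were 556 reads in BxC and 270 in CxB, 0.571 times as much in CxB (0.492 to 0.661), and 0.646 times by distinct positions (120 and 66). At 26 to 28 kb, inside Igf2r intron 1, there were 127 and 167 reads, 1.55 times as much in CxB (1.22 to 1.96), but 1.33 times by distinct positions, which is short of 1.5-fold. Both bins were singled out after their values were seen. The median over the 15 bins was 0.926-fold. Over the whole outside part CxB had 0.855 times the BxC density (0.809 to 0.903), and without the bin at 68 to 70 kb it had 0.918 times (0.865 to 0.973). Over the inside part the ratio was 1.06 (0.988 to 1.14).

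Most of the signal ended close to the shorter annotated ends of Airn, and a low level was found up to the longest. From the catalog end to 13023201, the last of the shorter ends, there were 288 reads in BxC and 194 in CxB over 2.72 kb, at 0.821 RPKM (0.729 to 0.921) and 0.650 RPKM (0.562 to 0.748). The next 26.2 kb, up to the longest annotated end, had 140 and 102 reads, at 0.0414 and 0.0355 RPKM, which is 0.0907 and 0.0908 times the density of Air outside Igf2r. Of these, 69 and 61 lay within the span of Mas1, where reads of Airn and of Mas1 introns cannot be told apart. This boundary was chosen after the profile was seen. After the longest annotated end the density was 0.00812 and 0.0101 RPKM. Intergenic bases of the genome at least 50 kb from any annotated gene had 0.0188 and 0.0195 RPKM.

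**Figure D3:**
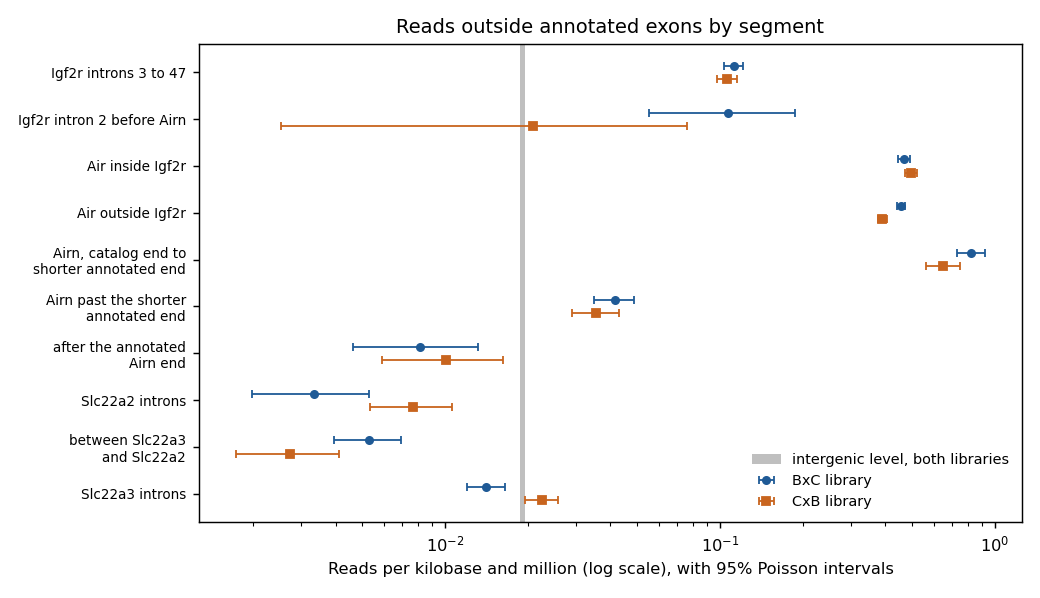
Density of reads outside annotated exons (RPKM, log axis) by segment of the domain, with 95% Poisson intervals, beside the level of intergenic bases far from genes (grey band). Air inside and outside Igf2r lay between 0.390 and 0.495 RPKM, Igf2r introns 3 to 47 near 0.11, and the introns of Slc22a2 under 0.01.

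The segments on the other side of Igf2r were sparse. Slc22a2 introns had 0.00334 and 0.00764 RPKM, below the intergenic level, and the 76.4 kb between Slc22a3 and Slc22a2 had 0.00528 and 0.00274. Slc22a3 introns had 153 reads in BxC and 207 in CxB, at 0.0141 RPKM (0.0120 to 0.0166) and 0.0225 RPKM (0.0195 to 0.0258). Both values are near the intergenic level, the BxC value below its 0.0188 RPKM and the CxB value above its 0.0195 RPKM. The Slc22a3 introns were 1.59 times (1.28 to 1.97) as dense in CxB, while 2.65% of the genes with 100 to 600 intronic reads in each library were past 1.5-fold. A single position held 20 of the 153 reads in BxC and 38 of the 207 in CxB. By distinct positions the ratio was 1.47, and without the position with most reads in each library it was 1.49, both short of 1.5-fold.

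The strand column of the alignments did not separate sense from antisense reads, so all counts above are of both strands. By reads it carried a weak lean toward the strand opposite to the gene. By distinct positions this lean was nearly gone over exons, where the annotated strand held a median share of 49.1% in BxC and of 48.0% in CxB, and it was not computed over introns of all genes. Over protein-coding genes that overlap no other gene, a median of 41.9% of intronic reads in BxC and 41.5% in CxB were placed on the plus strand for genes on the plus strand, and 58.0% and 58.4% for genes on the minus strand. In the part of Air inside Igf2r the plus share was 42.1% (39.7 to 44.5) and 42.7% (40.1 to 45.2). In the part outside it was 41.6% (39.8 to 43.3) and 40.8% (38.8 to 42.9). By distinct positions these shares were 40.7% and 41.0% inside and 40.6% and 38.0% outside. By reads the values in the overlap lay beside the median of plus-strand genes, the strand of Airn.

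In Igf2r introns 3 to 47 the plus share was 57.3% (53.5 to 61.1) in BxC and 51.2% (46.9 to 55.4) in CxB, and by distinct positions it was 57.7% and 53.2%. By reads the value for BxC lay beside the median of minus-strand genes, the strand of Igf2r. That for CxB lay within the central 90% of minus-strand genes, which reached down to 47.3%, and just above that of plus-strand genes, which reached up to 51.06%. In Slc22a3 introns, also of a minus-strand gene, it was 73.2% and 73.4% by reads and 56.8% and 64.5% by distinct positions.

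Spliced reads were common over Igf2r exons and nearly absent over Airn exons. Of the exonic reads of Igf2r, 746 of 6689 in BxC and 577 of 5810 in CxB were spliced, or 11.2% (10.4 to 11.9) and 9.93% (9.17 to 10.7). Of the reads over the annotated Airn exons, 1 of 410 in BxC was spliced, or 0.244% (0.00618 to 1.35), and 0 of 292 in CxB, which allows up to 1.03%. The single spliced Airn read spanned the 73.1-kb intron from 12934291 to 13007361, and the other 8 annotated Airn introns had no spliced read in either library. The 2 genes therefore had similar read totals over their catalog entries but very different numbers of spliced reads.

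The splice sites at issue are printed from the donor to the acceptor of Igf2r introns 1 and 2, which lie in the overlap, and of the Airn intron that held a spliced read. Each shows 10 exonic and 20 intronic bases, with the first and last pair of intron bases (GT and AG) in capitals.
Igf2r intron 1 donor: ccctgtgcagGTgggtgtcttgcgtggcgg
Igf2r intron 1 acceptor: cctcctttatttctttctAGttacacatgg
Igf2r intron 2 donor: cgctcagtggGTaagtaaagctgtcctgtg
Igf2r intron 2 acceptor: ttcttatcctctccaaacAGgtgactcact
Airn intron donor: gggaactgagGTaagctagggttccccgcg
Airn intron acceptor: tgctttaacctttcttctAGcccaccacct
The Igf2r sites lie at chr17:12962246-12962275, chr17:12941640-12941669, chr17:12941490-12941519 and chr17:12933263-12933292 on the minus strand, and the Airn sites at chr17:12934281-12934310 and chr17:13007342-13007371 on the plus strand. Of the 47 Igf2r introns, 46 begin with GT and end with AG. The other is intron 15, which begins with GC, and it had 26 spliced reads in each library. The 2 Igf2r introns that Air crosses were spliced like the others: intron 1 had 15 reads across it in BxC and 18 in CxB, and intron 2 had 9 and 11.

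Across Igf2r as a whole, 47 of 47 introns had at least 1 spliced read in BxC and 46 in CxB. An intron had a median of 12 spliced reads in BxC and 9 in CxB. The most were 52 across intron 39 in BxC and 40 across intron 26 in CxB. Intron 4 had 1 in BxC and 0 in CxB, and its neighbour, exon 4, was also among the least covered. A single spliced read, in CxB, joined exons that are not adjacent. Unspliced reads across an exon border of Igf2r, with at least 5 bases on each side, numbered 24 in BxC and 35 in CxB.

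**Figure D4:**
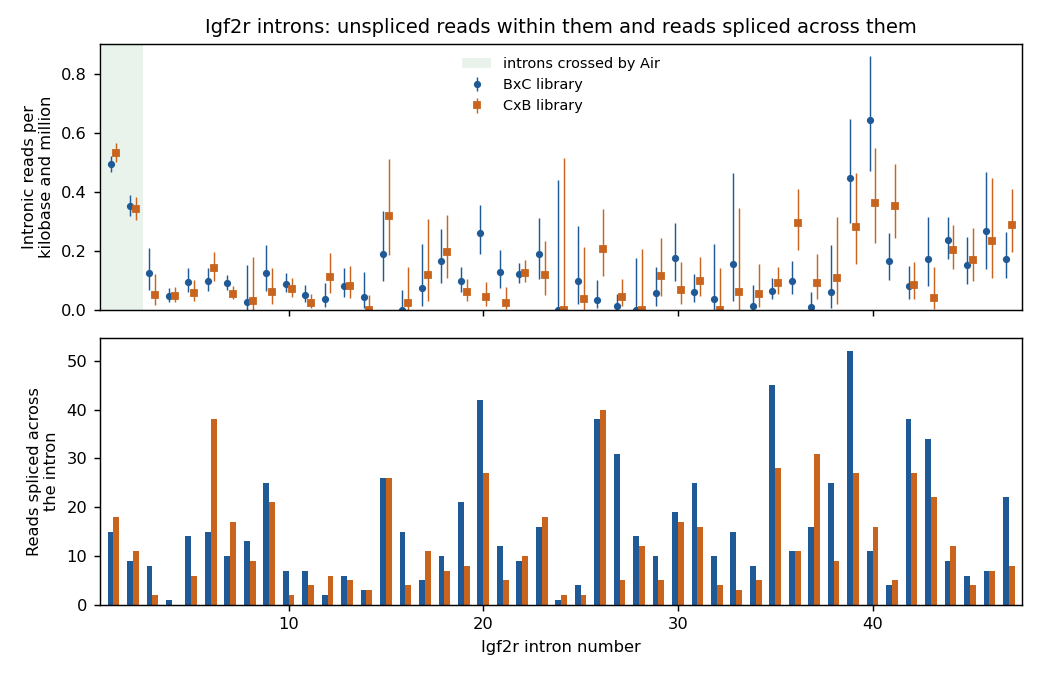
For each Igf2r intron, the density of unspliced reads within it (top, RPKM with 95% Poisson intervals) and the number of reads spliced across it (bottom), with the introns crossed by Air shaded. Introns 1 and 2 stood at 0.343 to 0.533 RPKM, and most others lay under 0.3, while spliced reads were found along the whole gene.

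Not all Igf2r introns outside Air were low. Introns 39 and 40 near the end of the gene had 0.447 and 0.644 RPKM in BxC and 0.281 and 0.362 in CxB, on 28 and 46 reads and on 15 and 22. Intron 41 had 19 reads in BxC and 34 in CxB, at 0.168 and 0.354 RPKM. These introns are shorter than 1 kb, and their intervals are wide, as the plot of introns shows. All 20 introns of 1 kb or more held reads in both libraries.

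With introns 3 to 47 alone, the Igf2r intron density was 0.0204 times its exon density in BxC (0.0188 to 0.0221) and 0.0189 times in CxB (0.0173 to 0.0206). Taken over its whole annotated span, with the introns that Air crosses, the ratio was 0.0426 and 0.0427. Among 5187 annotated genes with at least 1000 exonic reads in each library and at least 20 kb of introns, the median was 0.0252 and 0.0254. By distinct positions the ratio for introns 3 to 47 was 0.0329 and 0.0333, and its place among the genes was not computed. By reads and the whole-span value 74.1% and 74.5% of these genes were below Igf2r, and by the value outside Air 40.8% and 36.6% were. The genes nearest to Igf2r by the whole-span ratio were Tcf3 (0.0451 and 0.0403), Xkr4 (0.0343 and 0.0529) and Frmd3 (0.0437 and 0.0418). The median share of spliced among exonic reads of the same genes was 8.21% and 7.97%.

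Coverage along the Igf2r exons followed the same pattern in both libraries. Exon 1 was the deepest, at a mean of reads over each base, per 1000000 aligned reads, of 0.450 in BxC and 0.466 in CxB, and the long exon 48, which holds the end of the transcript, had 0.306 and 0.304. The lowest was exon 14 in BxC, at 0.0450, and exon 4 in CxB, at 0.0392. The median exon had 0.155 and 0.163. The median over the first 24 exons was 0.136 in BxC and 0.161 in CxB, beside 0.179 and 0.163 over the last 24. The lower first value in BxC did not reach the 5′ end. Exons 1, 2 and 3 had 0.450, 0.202 and 0.174 in BxC and 0.466, 0.203 and 0.175 in CxB, all above the median exon.

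**Figure D5:**
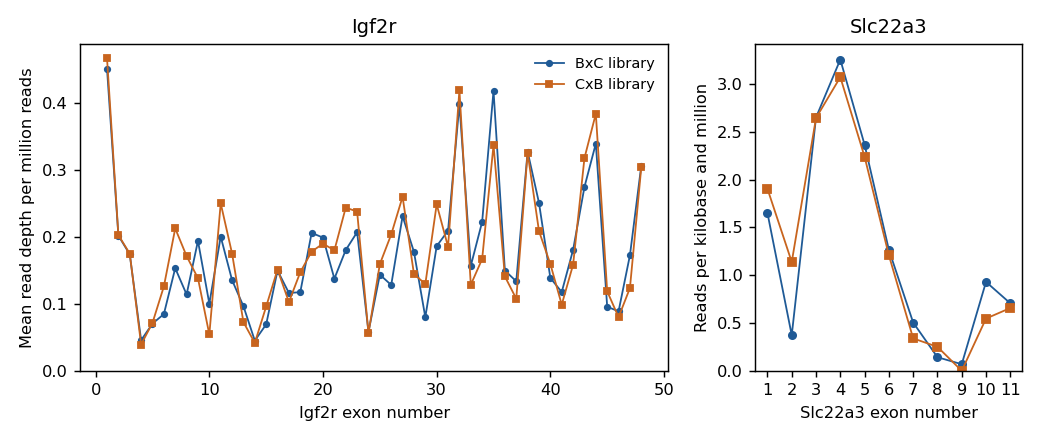
Left, mean read depth, scaled to library size, of each Igf2r exon from 1 to 48; right, RPKM of each Slc22a3 exon from 1 to 11. Both libraries followed the same pattern, with exon 1 the deepest of Igf2r and exons 3 to 5 above exons 7 to 9 in Slc22a3.

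The exons of Airn differed more. Exons 4 and 5, at 13007362 to 13008423 and 13008797 to 13009660, had 174 and 184 reads in BxC and 123 and 150 in CxB, at 1.27 and 1.65 RPKM and at 1.06 and 1.58 RPKM. They lie between the dense bins at 68 to 70 kb and at 76 to 80 kb. Exon 1 had 10 and 3 reads, exon 2 had 12 and 7, and exon 3 had 0 and 1. Exon 6, which ends at the last of the shorter annotated ends, had 24 reads in BxC and 3 in CxB. The last 2 exons, which belong to the longest transcript, had 0 and 7 reads in BxC and 0 and 5 in CxB.

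Slc22a3 was covered unevenly and spliced at few positions. Exon 1 had 169 reads in BxC and 166 in CxB at 1.65 and 1.91 RPKM, and exon 11, the last, had 139 and 110 at 0.706 and 0.657. Exons 3, 4 and 5 had 2.65, 3.26 and 2.37 RPKM in BxC and 2.65, 3.07 and 2.24 in CxB. Exon 9 had 1 and 0 reads. Of its exonic reads 77 of 441 were spliced in BxC and 54 of 396 in CxB, or 17.46% (14.0 to 21.3) and 13.6% (10.4 to 17.4). Introns 3 and 4 took 60 of the 77 and 48 of the 54, each time on 13 distinct positions. Of the 10 introns, 6 had a spliced read in each library.

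Slc22a2 was at the limit of what the depth can show. It had 2 spliced reads among 55 exonic reads in BxC and 10 among 52 in CxB, of which 7 crossed a single intron on 2 distinct positions. The last exon had 20 and 21 reads and exon 1 had 13 and 1. Its introns were below the intergenic level in both libraries.

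The receptor was set beside genes of its pathway, and Slc22a3 and Slc22a2 beside other organic cation transporters. Of 47 genes in 7 lists, 41 had at least 100 reads in each library and 0 of those were past 1.5-fold, beside 1.10% of all genes. The median log2 ratio of the 41 was -0.02, and that of all 15427 genes was -0.00. Of the 3 ligands, Igf2, which encodes IGF-II and is itself imprinted, was the highest at 125 RPKM in BxC and 107 in CxB and far above its receptor. Ins2, which encodes insulin, was the lowest, with 6 and 26 reads, a ratio of 5.09 on too few reads to be counted above (log2 interval 1.036 to 3.919).

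Of the 3 receptor genes Igf2r was the lowest by its annotated exons, at 5.50 and 5.61 RPKM, and Igf1r, the signalling receptor for both IGFs, was the highest at 25.0 and 22.4. Among the 7 binding protein genes Igfbp2, abundant in fetal brain, had 58.0 and 56.4 RPKM and Igfbp1 had 9 reads in each library. The 3 genes of the RNA-binding Igf2bp family ranged from 2.52 RPKM for Igf2bp1 to 3.63 for Igf2bp3 in BxC and from 2.66 to 3.01 in CxB.

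The genes that make and sort the mannose 6-phosphate tag recognised by Igf2r were all expressed. All 11 had at least 100 reads in each library, from Nagpa, which uncovers the tag, at 2.23 and 2.07 RPKM to Gnptg, a subunit of the enzyme that adds it, at 62.7 and 59.6. M6pr, the smaller receptor for the same tag, had 5.63 and 4.96 RPKM, close to Igf2r. All 13 lysosomal hydrolases, the cargo of both receptors, were above 100 reads as well, from Manba, a beta-mannosidase, at 0.630 and 0.723 RPKM to Gaa, the lysosomal alpha-glucosidase, at 32.4 and 30.7.

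Among the organic cation transporter genes Slc22a3 ranked after Slc29a4 and Slc22a5 in both libraries. Slc29a4, the plasma membrane monoamine transporter, was the highest at 33.2 and 35.0 RPKM, and Slc22a5, the carnitine transporter, had 1.84 and 1.53.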

How the data were processed

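Whole brain of 1 E17.5 embryo per reciprocal cross was sequenced in 36-base single-end reads from polyA+ RNA, with a protocol described as retaining strand. The authors aligned reads with Novoalign to mm9 (version not given in the sources used here) and deposited alignments with read counts per distinct position and strand, taken here as the number of reads from the values alone, since no source states it. Whether the deposited alignment was the one masked at polymorphic sites is not given in the sources used here.

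Counts of reads and of distinct positions were made with Python 3.11.15, NumPy 2.4.6, pandas 2.3.3, SciPy 1.17.1 and numba 0.67.0, and figures with matplotlib 3.10.9. RPKM used the total aligned reads of the library. Spliced reads were those with 2 blocks. The annotated strand held a median of 43.8% of the reads of coding genes that overlap no other gene in BxC, and of 43.1% in CxB. The strand-specific count planned was therefore replaced by reads of both strands, and the annotated strand became an alternative. Exact Poisson intervals were used for counts, Clopper-Pearson intervals for shares and conditional binomial intervals for ratios, at 95%. A count of 0 was taken to allow 3 reads. A gene was called different past 1.5-fold where neither library had under 100 reads. The counting was tested on simulated data. With 1 library per cross no test across samples was made.

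Genes named were all members, genes of the window with at least 100 reads in a library or overlapping a member, the highest and lowest of each pathway list, and the 3 genes nearest to Igf2r in the ratio of intron to exon density. Others were named where a comparison turned on them. The members and lists were chosen with earlier results of these data known. There were 0 columns without a sample. Promoter windows came from RefSeq (GRCm38.p6) and all other sequences from mm9. Results for 1 gene of the window are not reported here.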

Additional observations from a re-analysis of the deposited data

How the results depend on the processing

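With 1 library per cross, no library could be left out. No paired analysis was possible because each cross had a single library and no result came from a test. Under the alternatives tried, 3 members had at least 100 reads in each library and 0 were past 1.5-fold. By distinct positions, scaled to all distinct positions of the library, RPKM rose to 1.61 and 1.63 for Slc22a3, 0.499 and 0.376 for Slc22a2 (then higher in BxC), 8.38 and 8.24 for Igf2r, and 1.00 and 0.874 for Air. On the annotated strand alone it was 0.455 and 0.454, 0.0871 and 0.0768 (again higher in BxC), 2.58 and 2.54, and 0.240 and 0.217. The log2 ratio of Igf2r, 0.03 as reported, was -0.02 by distinct positions and -0.03 on the annotated strand, and that of Air, -0.13, was -0.19 and -0.15. The density of Air inside over outside Igf2r moved from 1.02 in BxC and 1.27 in CxB to 1.32 and 1.44 by distinct positions, 0.934 and 1.16 over unique 36-base words, 1.39 and 1.73 over the annotated Airn span, 1.099 and 1.391 over all bases, and 0.955 and 1.18 with the Airn exons kept. Inside over Igf2r introns 3 to 47 moved from 4.16 in BxC to 3.06 and from 4.66 in CxB to 3.89 with the plus strand only, and to 3.73 in CxB by distinct positions. Igf2r intron over exon density moved from 0.0204 and 0.0189 to 0.0329 and 0.0333 by distinct positions, and to 0.0436 and 0.0437 over all 47 introns. The spliced share of Igf2r moved from 11.2% and 9.93% to 12.24% and 11.6% by distinct positions. The cause was not tested. Of the window genes, 17 had at least 100 reads in each library, and 13 had by the annotated strand or by distinct positions. The unique words, the kept Airn exons, the shorter end, the plus strand, the 47 introns and both alternatives for the Slc22a3 introns were chosen after seeing the data. For Slc22a2 the depth limits any comparison.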
